A study of Mus musculus with 28 samples.

Results

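The mitochondrial ribosomal proteins were examined here in the neonatal mouse heart after myocardial infarction (MI). All protein-coding genes whose symbol starts with Mrpl or Mrps followed by a digit were taken, which gave 77 of the 45318 genes in the count tables, 21719 of them protein-coding. All 77 passed the filter on low counts at both follow-ups. The rule used gene names and the protein-coding label only, and no measured value, though it was chosen with earlier results of these data known.

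Male Hsd:ICR (CD-1) mice underwent ligation of the left anterior descending coronary artery (MI) or a sham operation at 1 or 7 days of age. At 1 day of age the mouse heart can still regenerate, and at 7 days this capacity has largely been lost, so the design asked how the remaining myocardium of the 2 ages differed after the same injury. Myocardium was sequenced 3 days later (n = 4 libraries per group) or 21 days later (n = 3 per group). The paper places its 21-day transcriptome samples distal to the ischemic insult, and its discussion names the left ventricular remote zone. It gives no separate site for the 3-day samples. A group is named by age at operation, operation and days of follow-up, so that 7d-MI + 3 stands for mice infarcted at 7 days and sampled 3 days after. The mice were thus 4, 10, 22 or 28 days old at collection, so the 2 ages of operation also differ in age at sampling, and no group carried a transgene or a drug treatment.

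Mitochondria carry their own small genome, and the mitochondrial ribosome translates its few messages, all of which encode core subunits of the respiratory chain and ATP synthase. Its RNA is made inside the organelle, but every protein of it is encoded in the nucleus, made in the cytosol and imported. The small subunit reads the message, the large subunit joins the amino acids and feeds the nascent chain into the inner membrane, and compared with bacterial ribosomes the particle has lost RNA and gained proteins found in mitochondria alone. Heart muscle is dense in mitochondria, and inherited defects in several of these proteins cause cardiomyopathy in childhood.

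Of the 77 genes, 26 encode small subunit proteins and 50 large subunit proteins. Mrps36 carries a ribosomal name but is now counted with the oxoglutarate dehydrogenase complex. By family, 45 have bacterial counterparts (29 large, 16 small) and 31 are mitochondria-specific (21 large, 10 small). Among them Mrps18a and Mrps30 sit in the large subunit in spite of their names.

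Library totals lay between 33077962 and 51942648 counts at 3 days and between 40514177 and 168550985 at 21 days, and the 77 genes took 71469 to 141803 and 28798 to 721332 of them. At 3 days ribosomal RNA took at most 0.257% of the counts, whereas at 21 days its share ran from 0.746% to 78.1%, with wide differences inside groups. This share counts nuclear ribosomal RNA and genes overlapping its repeats, Lars2 among them, and leaves out mitochondrial ribosomal RNA. Genes of the mitochondrial genome took 37.2% to 61.0% of the counts at 3 days and 8.24% to 56.1% at 21 days. The 2 follow-ups used different library kits and instruments, so each was scaled on its own and no level was compared between them. Levels are counts relative to library size (CPM) after scaling of the libraries by trimmed means (TMM), and a change was called at an adjusted p under 0.05 over all tested genes. In 3 of the groups at 3 days the library names carry more than 1 number prefix, whose meaning the labels do not give. In the 1d-SHAM + 3 group replicates 1 and 2 share one prefix and replicates 3 and 4 another, and several genes below split along that line. No prefix spans 2 groups, so prefix and group cannot be told apart within a prefix.

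The genes were spread over a wide range of levels. Per kilobase of exon, the median gene stood at 8.70 CPM at 3 days (0.945 to 352) and at 9.55 CPM at 21 days (0.938 to 208). Mrpl42 was the highest at both follow-ups, at 352 and 208 CPM per kilobase. After it came Mrpl18 (84.3) and Mrpl12 (78.2) at 3 days, and Mrps21 (112) and Mrpl41 (67.8) at 21 days. The lowest were Mrps10 (0.945), Mrps11 (1.38) and Mrpl23 (1.43) at 3 days, and Mrps10 (0.938), Mrpl19 (1.67) and Mrps26 (2.24) at 21 days.

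At 3 days after operation, the mRNAs of the mitochondrial ribosome were lower as a body in the 7d-MI + 3 group. Their summed level was 1503 to 1818 CPM there, against 2429 to 2753 in the 7d-SHAM + 3 group, 1874 to 2538 in the 1d-MI + 3 group and 2444 to 2823 in the 1d-SHAM + 3 group. All 4 libraries of the 7d-MI + 3 group lay below the other 12. The ratio of large to small subunit mRNA was 2.49 to 2.61 in that group and 2.64 to 2.72 in the 7d-SHAM + 3 group. It was 2.51 to 2.56 in the 1d-MI + 3 group. The 1d-SHAM + 3 libraries split by prefix, at 2.31 and 2.26 in replicates 1 and 2 and 2.64 and 2.70 in replicates 3 and 4.

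**Figure D1:**
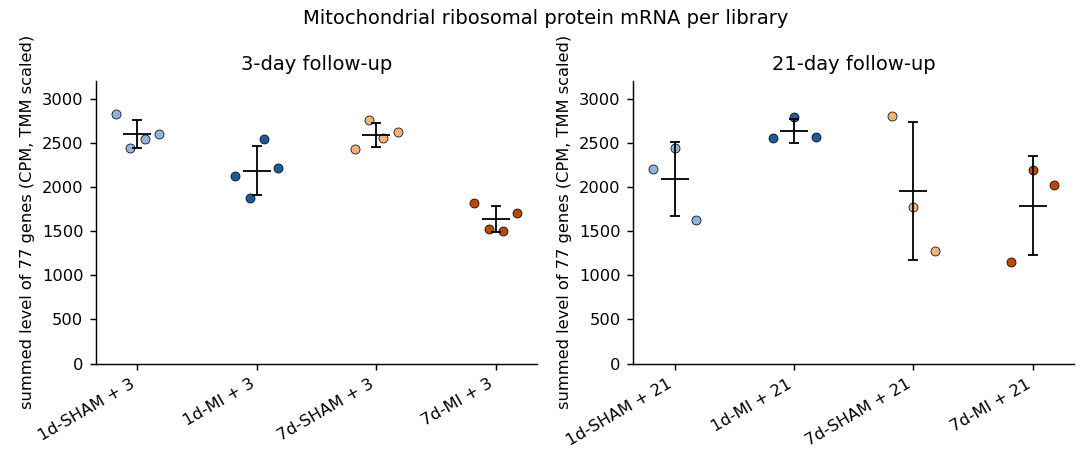
Summed level of the 77 genes (CPM, TMM scaled within a follow-up) in each library at 3 days and at 21 days; points are libraries, and the bars mark the group mean with its SD. At 3 days the 7d-MI + 3 libraries sit between 1503 and 1818 CPM, below every other library, while at 21 days the 7d-SHAM + 21 libraries alone span 1279 to 2809 CPM.

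Compared with sham-operated mice of the same age, 53 of the 77 genes fell in the 7d-MI + 3 group and 2 rose. Over all 20345 tested genes 14.2% fell and 19.8% rose in this comparison. The median log2 fold change of the 77 genes was -0.55 (quartiles -0.70 and -0.38, range -1.07 to 0.48), or 31.6% less mRNA, beside a median of 0.08 over all tested genes, and 74 of the 77 estimates were negative. The 22 genes that did not pass the test had estimates between -0.62 (Mrpl23) and 0.15 (Mrps6).

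The 6 genes with the smallest p were Mrpl47, Mrpl39, Mrpl12, Mrps35, Mrpl42 and Mrpl55. Mrps35, a mitochondria-specific protein of the small subunit, read 53.1, 49.9, 49.0 and 42.3 CPM in the 7d-SHAM + 3 libraries (replicates 1 to 4) and 26.2, 20.1, 22.4 and 23.8 CPM in the 7d-MI + 3 libraries. The 2 groups were well apart, and the log2 fold change was -1.07 ± 0.15 (SE, adjusted p = 2.01e-05). Mrpl39, a mitochondria-specific protein near the rim of the exit tunnel, fell from 54.7, 71.5, 67.1 and 58.4 CPM to 39.4, 29.2, 25.6 and 29.5 CPM (-1.02 ± 0.15). Mrpl12 forms the stalk that recruits translation factors. It stood at 135, 162, 133 and 154 CPM after sham operation and at 77.3, 66.9, 78.7 and 87.0 CPM after MI (-0.91 ± 0.13). For Mrpl42, the most abundant of the set, the values were 291, 323, 293 and 308 CPM against 180, 132, 110 and 165 CPM (-1.05 ± 0.16). Mrpl55 belongs to the central protuberance, and its 23.2, 23.7, 24.0 and 25.7 CPM after sham operation compared with 10.95, 10.6, 9.27 and 15.2 CPM after MI (-1.07 ± 0.17). In Mrpl47, a tunnel rim protein, the sham libraries lay at 35.5 to 39.2 CPM and the MI libraries at 24.1, 19.2, 19.7 and 19.4 CPM (-0.86 ± 0.12, adjusted p = 9.67e-06). None of these 6 genes had overlapping groups. On GRCm38 they lie on different chromosomes or far apart, Mrps35 at chr6:147042764-147073991, Mrpl39 at chr16:84717576-84735742, Mrpl42 at chr10:95480805-95501940, Mrpl47 at chr3:32725397-32737605, and Mrpl55 and Mrpl12 at chr11:59202486-59206134 and chr11:120484613-120489065. Exons of Mrpl47 and Mrpl12 overlap those of other genes on the opposite strand (Ndufb5 and Actl6a, and Gm16755), and the counting of strand was not given in the sources used here.

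**Figure D2:**
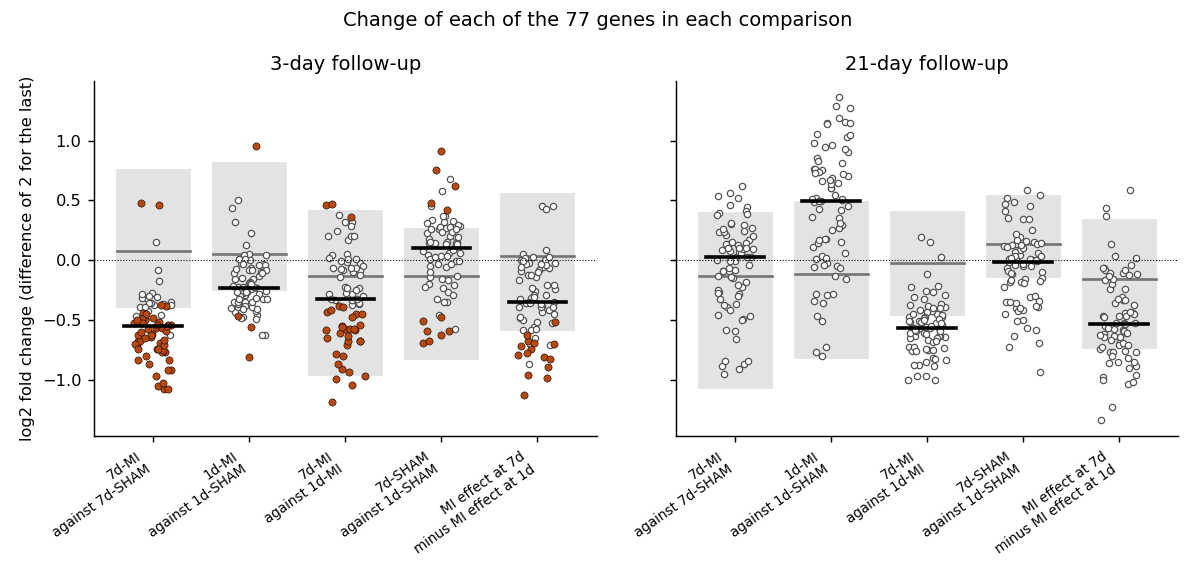
Log2 fold change of each of the 77 genes in each comparison at each follow-up, filled where called and open where not. Black lines are the medians of the 77 genes, and grey lines and boxes the median and quartiles of all tested genes. In 7d-MI against 7d-SHAM at 3 days the points centre on -0.55, and in 1d-MI against 1d-SHAM on -0.23.

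Genes of both subunits, and both conserved and mitochondria-specific genes, fell. In the small subunit 19 of 26 genes fell and 1 rose (median -0.59), and in the large subunit 33 of 50 fell and 1 rose (median -0.54). Among the genes with bacterial counterparts 32 of 45 fell (median -0.59), and 20 of 31 did among the mitochondria-specific genes (median -0.52). Of the 7 genes assigned here to the central protuberance, the crown of the large subunit, 4 fell. Of the 8 assigned to the rim of the exit tunnel 5 fell and 1 rose. These lists may not be complete. Leaving out the 32 genes whose exons overlap another gene, 34 of the remaining 45 fell (median -0.64).

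By site of action, the stalk base protein Mrpl11 fell from 18.03 to 21.5 CPM in the 7d-SHAM + 3 libraries to 10.2 to 13.7 CPM in the 7d-MI + 3 libraries (-0.67 ± 0.13), whereas its neighbour Mrpl10 did not pass the test (-0.35 ± 0.22, adjusted p = 0.227). Near the peptidyl transferase centre, where peptide bonds form, Mrpl3 (-0.59 ± 0.12) and Mrpl2 (-0.54 ± 0.17) both fell. Mrpl45, which tethers the tunnel exit to the inner membrane, read 24.9, 27.9, 30.7 and 29.8 CPM after sham operation and 20.2, 19.0, 23.4 and 18.7 CPM after MI (-0.48 ± 0.15). In the small subunit, Mrps12 at the decoding centre was 5.10, 5.94, 6.04 and 5.84 CPM against 3.30, 4.29, 3.02 and 3.51 CPM (-0.70 ± 0.19), and Mrps5 at the mRNA entry fell by 0.67 ± 0.19 on the log2 scale. The Mrps12 and Mrps5 groups did not overlap. Mrpl58, a peptidyl-tRNA hydrolase built into the large subunit that can release stalled chains, was 16.7 to 19.98 CPM and 12.3 to 15.5 CPM without passing the test (-0.38 ± 0.15, adjusted p = 0.0598). Mrps30 in the large subunit fell (-0.49 ± 0.14), as did Mrps36 of the oxoglutarate dehydrogenase complex (-0.74 ± 0.16).

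Several members are known from inherited deficiencies of oxidative phosphorylation. Of these, Mrpl44 and Mrpl3, both linked to hypertrophic cardiomyopathy, fell (-0.56 ± 0.17 for Mrpl44), and so did Mrps22 (-0.69 ± 0.15), Mrps14 (-0.67 ± 0.17), Mrps16 (-0.70 ± 0.16), Mrps34 (-0.52 ± 0.14) and Mrps7 (-0.37 ± 0.13). Mrpl44 read 6.36, 7.49, 7.86 and 6.30 CPM after sham operation and 4.42, 4.003, 5.97 and 4.58 CPM after MI. Mrps2 had overlapping groups (16.8 to 23.0 CPM against 13.1 to 24.2 CPM) and did not pass (-0.27 ± 0.18, adjusted p = 0.267). Mrpl13 fell by 0.60 ± 0.13 on the log2 scale, whereas Mrpl24 (-0.37 ± 0.15, adjusted p = 0.0675), Mrps27 (-0.30 ± 0.21, adjusted p = 0.303) and Mrps6 (0.15 ± 0.22, adjusted p = 0.657) did not pass.

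The 2 genes that rose were Mrpl17, a tunnel rim protein, and Mrps18b. Mrpl17 read 8.06, 8.79, 9.42 and 10.01 CPM in the 7d-SHAM + 3 libraries and 14.3, 10.8, 12.8 and 12.1 CPM in the 7d-MI + 3 libraries (0.46 ± 0.17, adjusted p = 0.0450). Mrps18b was 2.45, 2.72, 3.10 and 3.26 CPM against 3.68, 3.79, 4.31 and 4.32 CPM (0.48 ± 0.18, adjusted p = 0.0426). In neither gene did the groups overlap, but the 2 calls were close to the threshold. Of 18 alternative analyses, 14 lost the call for Mrpl17 and 15 that for Mrps18b. In edgeR, scaling by relative log expression, by upper quartiles or over nuclear protein-coding genes left no gene of the set higher. Of all tested genes 18.7%, 17.3% and 18.8% were higher in these fits, in the same order. DESeq2 called 2 of the set higher and 58 lower, beside 20.2% and 16.8% of all genes. Antisense transcript Gm16279 overlaps 30.5% of the exon bases of Mrps18b.

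Other features moved with this comparison. In bulk tissue, fewer cells of a type and less RNA per cell cannot be told apart. The summed level of 9 ventricular cardiomyocyte markers was 30104 to 31660 CPM in the 7d-SHAM + 3 group and 15440 to 25474 CPM in the 7d-MI + 3 group, with 6 of 9 lower, among them Tnni3, Myl2 and Pln. All 7 macrophage markers were higher (summed 89.1 to 115 CPM against 256 to 429 CPM), 6 of 8 fibroblast markers were higher and 2 lower (3557 to 3986 CPM against 6168 to 7023 CPM), and 7 of 8 proliferation markers were higher (167 to 320 CPM against 692 to 797 CPM). Summed atrial markers, a list that includes Nppa, were 110 to 166 CPM after sham operation and 750 to 2246 CPM after MI, with 2 of 6 tested higher and 1 lower. No marker of these lists was at 0 in every library, and the ventricular markers were abundant in every group. The part of tissue composition in the lower levels was not tested. The ribosomal RNA share was also higher, at 0.127% to 0.257% after MI against 0.0367% to 0.0793% after sham operation. With that share as a covariate, only 1 of the 77 genes was called in this comparison, a lower one (median -0.39), with 2.98% of all tested genes lower and 6.45% higher. Because the share itself separates the 2 groups, the 2 cannot be told apart. Genes of the mitochondrial genome took 40.3% to 43.3% of the counts after MI and 54.9% to 61.0% after sham operation. The part of that share was not tested.

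In mice operated at 1 day of age, few of these genes passed the test at 3 days. In the 1d-MI + 3 group 3 of 77 fell and 1 rose compared with the 1d-SHAM + 3 group, where 4.36% of all tested genes fell and 4.1% rose, so the share called was near the background. The median log2 fold change was -0.23 (range -0.81 to 0.95) beside 0.06 over all genes, and 65 of 77 estimates were negative. At an unadjusted p under 0.05 there were 22 lower and 4 higher, beside 13.0% and 14.4% of all genes.

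Mrpl20, a large subunit protein with a bacterial counterpart, was the gene that rose. Its values were 10.6, 9.01, 8.64 and 9.06 CPM in the 1d-SHAM + 3 libraries and 18.5, 16.3, 17.5 and 19.9 CPM in the 1d-MI + 3 libraries (0.95 ± 0.17, adjusted p = 0.00347). Every MI library was above every sham library. The call held in 19 of 20 alternatives. Mrpl47 fell from 42.4, 43.6, 38.1 and 41.1 CPM to 23.8, 29.6, 30.5 and 28.6 CPM (-0.55 ± 0.11, adjusted p = 0.00803). Mrpl30 was 62.1, 46.0, 63.1 and 59.2 CPM against 41.6, 34.0, 48.8 and 42.5 CPM (-0.47 ± 0.13, adjusted p = 0.0330), with overlapping groups. Mrpl10, of the stalk base, read 9.71 and 14.1 CPM in replicates 1 and 2 of the 1d-SHAM + 3 group and 20.8 and 22.8 CPM in replicates 3 and 4, against 10.7, 6.34, 10.5 and 11.03 CPM after MI (-0.81 ± 0.21, adjusted p = 0.0274). Its sham libraries thus split by prefix, and the low pair overlapped the MI libraries. Mrpl47 and Mrpl30 were the only genes of the set called lower in both MI comparisons.

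The counts at 1 day depended on which libraries entered. With replicates 1 and 2 alone as 1d-SHAM + 3, 2 genes were called, beside 1.74% of all genes. With replicates 3 and 4 alone 15 were, 2 higher and 13 lower, beside 15.7% higher and 7.37% lower over all genes. Without 1d-MI + 3 replicate 3 the count was 13, where 15.1% of all genes were called. Without 1d-SHAM + 3 replicate 2 it was 11, where 14.6% were. It was 2 without 1d-MI + 3 replicate 1 or 2, beside 3.18% and 3.05% of all genes. Leaving out 1d-SHAM + 3 replicate 3 or 4 also gave 2, beside 3.24% and 3.45%. In the 1d-MI + 3 group 3 of 7 macrophage markers were higher and 2 of 9 ventricular cardiomyocyte markers lower. Summed atrial markers, a list that includes Nppa, were 2258 to 4183 CPM there and 43.4 to 322 CPM in the 1d-SHAM + 3 group. Of the 6 tested, 2 were higher and 0 lower. The part of these markers was not tested. The ribosomal RNA share was 0.0630% to 0.142% in the 1d-MI + 3 group against 0.0345% to 0.0463% after sham operation. With that share as a covariate no gene of the set was called, beside 0.0590% of all tested genes.

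**Figure D3:**
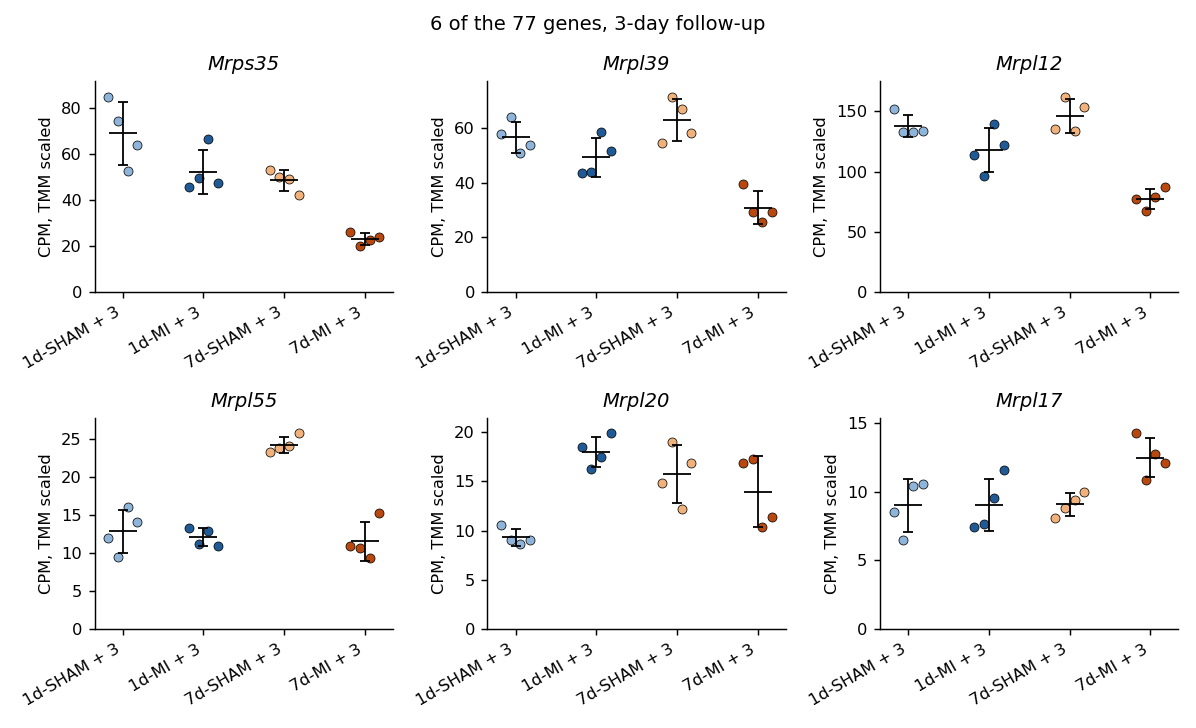
Level (CPM, TMM scaled) of Mrps35, Mrpl39, Mrpl12, Mrpl55, Mrpl20 and Mrpl17 in each library at 3 days; points are libraries and bars the group mean with its SD. Mrps35 is at 20.1 to 26.2 CPM in the 7d-MI + 3 group, Mrpl20 is at 8.64 to 10.6 CPM in the 1d-SHAM + 3 group and at 16.3 to 19.9 CPM in the 1d-MI + 3 group, and Mrpl17 is at 10.8 to 14.3 CPM in the 7d-MI + 3 group.

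Whether the effect of MI differed between the ages was tested as the difference between the 2 effects. For 15 of the 77 genes the change after MI was more negative at 7 days than at 1 day, and for none was it more positive, beside 4.07% and 9.01% of all tested genes. The median difference was -0.35 on the log2 scale (range -1.12 to 0.45) against 0.03 over all genes, and 67 of 77 were negative. Of the 15, 13 were of the large subunit and 2 of the small subunit (Mrps9 and Mrps35).

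The difference was greatest for Mrpl20 (-1.12 ± 0.24, adjusted p = 0.00471), which rose after MI at 1 day and was 14.9, 19.0, 12.2 and 16.9 CPM in the 7d-SHAM + 3 group and 16.9, 17.2, 10.4 and 11.4 CPM in the 7d-MI + 3 group. The 1d-SHAM + 3 libraries, at 8.64 to 10.6 CPM, reached as high as the lowest 7d-MI + 3 library. Mrpl55 (-0.98 ± 0.23) showed another pattern, with 11.96, 9.41, 16.03 and 14.0 CPM in the 1d-SHAM + 3 group, 13.3, 11.1, 12.9 and 10.9 CPM in the 1d-MI + 3 group and high values in the 7d-SHAM + 3 group alone. Mrpl50, a mitochondria-specific protein of the large subunit, was 32.5, 46.3, 39.9 and 49.98 CPM and 45.0, 37.4, 47.4 and 43.7 CPM at 1 day (0.04 ± 0.13), and fell from 47.4 to 53.6 CPM to 26.3 to 32.0 CPM at 7 days (difference -0.80 ± 0.19). Mrpl41 followed the same course, from 35.6 to 44.9 and 38.3 to 46.1 CPM at 1 day to 41.5 to 48.7 and 25.9 to 32.0 CPM at 7 days (difference -0.70 ± 0.16). Mrpl16, a conserved large subunit protein, had a positive estimate at 1 day that did not pass (0.32 ± 0.15, adjusted p = 0.181) and fell at 7 days (-0.57 ± 0.15), a difference of -0.89 ± 0.22. For Mrpl39 the difference was -0.83 ± 0.20, for Mrpl12 -0.69 ± 0.18 and for Mrps35 -0.67 ± 0.21. The other 7 were Mrpl53, Mrps9, Mrpl9, Mrpl22, Mrpl34, Mrpl3 and Mrpl46, with differences of -0.51 to -0.96. In Mrpl46 a single 1d-MI + 3 library stood at 30.8 CPM, with the other 3 at 12.2 to 14.3 CPM.

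The number of genes in this test moved with the analysis, from 4 with a random block for the prefix to 39 with upper-quartile scaling, where 1.21% and 8.62% of all genes were called in that direction. It was 6, 9 or 8 without 7d-SHAM + 3 replicate 2, 3 or 4, beside 2.30%, 2.47% and 2.69% of all genes in that direction. Without 7d-MI + 3 replicate 1, 2 or 4 it was 9, 7 or 8, beside 3.01%, 2.39% and 2.38%. Leaving out 1d-MI + 3 replicate 3 gave 9, beside 3.35%, and leaving out 1d-SHAM + 3 replicate 3 gave 8, beside 2.67%. The scaling shifted the median of all genes as well, to -0.21, and the median of the set relative to it was -0.38 under trimmed means, relative log expression and upper quartiles. This relative median moved with the libraries and the filter. It was -0.083 with 1d-SHAM + 3 replicates 3 and 4 alone, -0.19 without 1d-SHAM + 3 replicate 2 and 0.056 with no filter. With replicates 3 and 4 alone 15 genes were more negative and 1 more positive, beside 5.98% and 7.42% of all genes.

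The infarcted groups of both ages were also compared directly, at 10 and 4 days of age. In the older mice 31 of 77 genes were lower and 3 higher, beside 23.5% and 19.4% of all tested genes, with a median of -0.32 (range -1.18 to 0.47) against -0.13 over all genes. This comparison shares the 7d-MI + 3 libraries with the comparison against sham, so the 2 are not independent.

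The lowest p were those of 3 small subunit genes, Mrps35, Mrps22 and Mrps9. Mrps35 was 45.8, 49.5, 66.5 and 47.5 CPM in the 1d-MI + 3 libraries, all above the 20.1 to 26.2 CPM of the 7d-MI + 3 libraries (-1.18 ± 0.15, adjusted p = 1.03e-05). Mrps22, a mitochondria-specific protein, was 44.5, 40.4, 50.6 and 43.0 CPM against 27.1, 19.4, 18.4 and 21.9 CPM (-1.04 ± 0.15), and the conserved Mrps9 was 39.7, 32.4, 47.4 and 39.4 CPM against 18.8, 19.1, 22.6 and 21.0 CPM (-0.96 ± 0.15). After them came Mrpl18 (121, 123, 161 and 114 CPM against 77.6, 49.9, 66.2 and 66.9 CPM), Mrps18c, and Mrpl1 (76.4 to 101 CPM against 36.5 to 58.9 CPM). Without 1d-MI + 3 replicate 3, which had the highest summed level of its group, the median was -0.20 with -0.19 over all genes. Relative to all genes the median of the set thus went from -0.19 to -0.010, and it was -0.061 and -0.026 without 7d-MI + 3 replicate 2 or 3. In this comparison all 7 macrophage markers, all 8 fibroblast markers and 5 of 6 smooth muscle and pericyte markers were higher, and of the 9 ventricular cardiomyocyte markers 2 were higher and 3 lower (summed 13408 to 18802 CPM at 1 day and 15440 to 25474 CPM at 7 days). Their part in the result was not tested. The 3 higher genes were Mrpl17 (0.47 ± 0.17), Mrps18b (0.47 ± 0.18) and Mrps18a (0.36 ± 0.14), with adjusted p of 0.0344 to 0.0380. Their calls were lost in 11, 15 and 14 of 18 alternatives, and DESeq2 and edgeR with relative log expression or upper-quartile scaling called no gene higher.

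Between the sham groups, at 4 and 10 days of age, the set showed little common movement. In the 7d-SHAM + 3 group 5 genes were higher and 7 lower than in the 1d-SHAM + 3 group, beside 8.12% and 12.2% of all tested genes, with a median of 0.10 against -0.13 over all genes. Mrpl55 rose from 9.41 to 16.03 CPM to 23.2 to 25.7 CPM (0.91 ± 0.17, adjusted p = 0.000735), and Mrpl20 from 8.64 to 10.6 CPM to 12.2 to 19.0 CPM (0.76 ± 0.17). The summed ventricular cardiomyocyte markers were 18732 to 23497 CPM in the younger and 30104 to 31660 CPM in the older sham group, and their part was not tested. The other higher genes were Mrps12 (0.62 ± 0.19), Mrpl43 (0.48 ± 0.14) and Mrps34 (0.42 ± 0.14). Of the exon bases of Mrpl43, 33.4% overlap Twnk, and of those of Mrps34, 63.4% overlap Mapk8ip3.

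The lower genes were Mrps22, Mrps35, Mrpl49, Mrpl10, Mrps10, Mrps5 and Mrpl18. In most of them the 1d-SHAM + 3 libraries split by prefix. Mrps22 read 66.7 and 60.2 CPM in replicates 1 and 2, 47.3 and 41.8 CPM in replicates 3 and 4, and 34.3, 34.3, 40.1 and 31.4 CPM in the 7d-SHAM + 3 group (-0.63 ± 0.15). For Mrpl18 these were 208 and 175, 138 and 121, and 114 to 118 CPM (-0.47 ± 0.16), and for Mrps5 58.8 and 58.5, 42.7 and 31.4, and 27.4 to 34.6 CPM (-0.59 ± 0.19). With replicates 1 and 2 alone 28 genes were called (20 higher, 8 lower), beside 11.2% higher and 18.9% lower over all genes, and with replicates 3 and 4 alone 3 were (2 higher, 1 lower), beside 2.80% and 3.43%. The count was 5 or 4 without 1d-SHAM + 3 replicate 1 or 2, beside 11.5% and 10.8% of all genes. Without 7d-SHAM + 3 replicate 1, 2, 3 or 4 it was 7, 4, 4 or 3, beside 12.5%, 11.6%, 11.7% and 11.2%. Mrpl55 kept its call in all 20 alternatives and Mrpl20 in 19.

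The Mrps18 family holds 3 paralogs that occupy different places in the ribosome, and their mRNAs took different courses. Mrps18c, the counterpart of the bacterial protein in the small subunit, was 30.8, 24.0, 24.0 and 21.4 CPM in the 1d-SHAM + 3 group, 26.1, 19.9, 25.1 and 24.7 CPM in the 1d-MI + 3 group, 16.9, 20.3, 20.4 and 21.2 CPM in the 7d-SHAM + 3 group and 16.3, 14.7, 10.9 and 13.9 CPM in the 7d-MI + 3 group. It fell in the 7d-MI + 3 group against both the sham group (-0.50 ± 0.15, adjusted p = 0.0115) and the 1d-MI + 3 group (-0.78 ± 0.15, adjusted p = 0.000356). Mrps18a, in the large subunit, was 7.34 to 9.88 CPM and 7.62 to 9.63 CPM at 1 day, and 11.01, 12.5, 11.1 and 11.7 CPM and 9.41, 11.95, 10.8 and 11.8 CPM at 7 days, with no change after MI that passed (-0.08 ± 0.14 at 7 days, adjusted p = 0.719). Mrps18b, in the small subunit at a site of its own, was 2.46 to 3.02 CPM and 2.54 to 3.08 CPM at 1 day and had its highest values in the 7d-MI + 3 group. Thus 1 paralog fell, 1 rose with the reservations given above, and 1 did not pass the test. Whether the paralogs differed from each other was not tested. Gm43511 overlaps 23.2% of the exon bases of Mrps18c on the same strand.

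**Figure D4:**
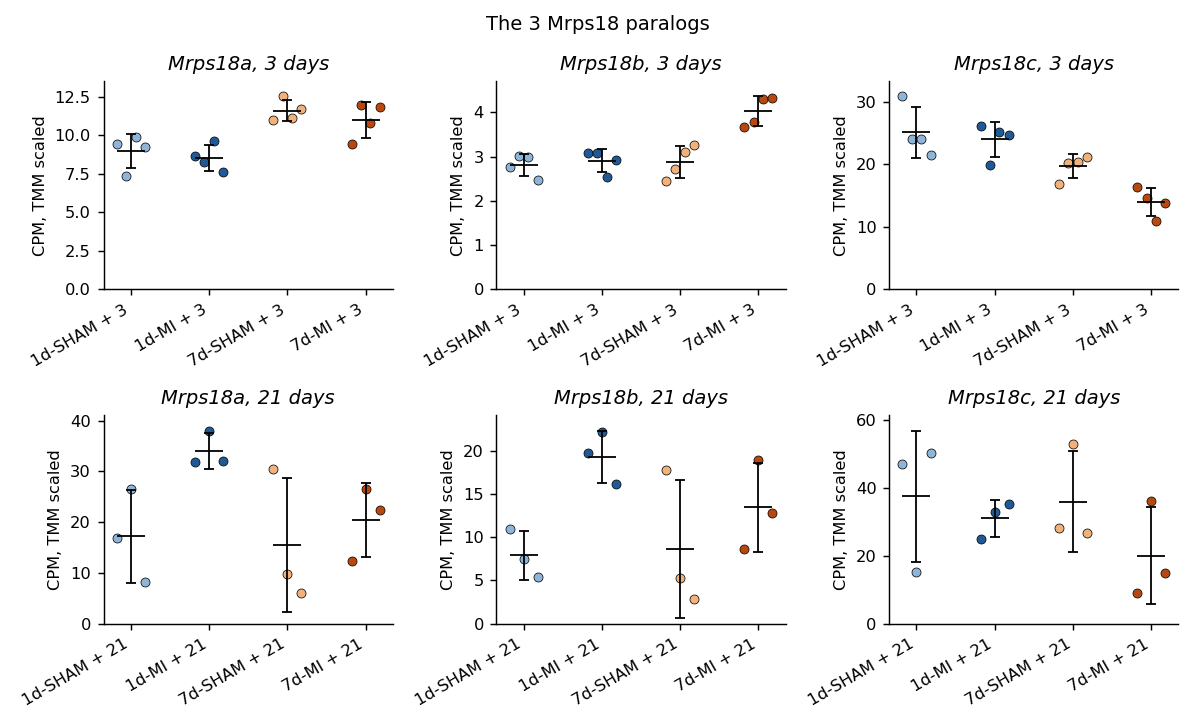
Level (CPM, TMM scaled) of the 3 Mrps18 paralogs in each library at 3 days (upper row) and 21 days (lower row); points are libraries and bars the group mean with its SD. In the 7d-MI + 3 group Mrps18c lies at 10.9 to 16.3 CPM and Mrps18b at 3.68 to 4.32 CPM.

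The sequence before the start of these genes was searched because so many of them fell together. Promoter windows from 250 bases before to 50 after the RefSeq start (GRCm38.p6) were at hand for 68 of the 77 genes (74 windows). Both strands were searched for 5 short motifs. The ETS motif CCGGAAG, read by GABP among others, was in the windows of 25 genes, or 36.8%, compared with 8.86% of all 32851 windows. The YY1 motif AAGATGGC was in those of 12 genes (17.6%, against 2.75%), and the NRF-1 core GCGCATGC in those of 7 genes (10.3%, against 2.71%). The ERR site AAGGTCA (4 genes, 5.88%, against 4.72%) and the E-box CACGTG (5 genes, 7.35%, against 7.15%) were about as frequent as elsewhere. Counted per window, the shares of the set were 33.8%, 16.2%, 9.46%, 5.41% and 9.46%. The reverse complement of the NRF-1 core overlaps it where the full palindrome is present. The ETS motif was found for 19 of the 47 genes with a window that fell in 7d-MI against 7d-SHAM (40.4%) and for 6 of the 21 others (28.6%), and the NRF-1 core for 3 and 4. A match is a description of the letters and not evidence of binding.

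For 5 genes with contrasting courses, 60 bases around a match are shown 5′ to 3′ on the strand of the gene, with the motif in capitals. Mrps22, among the genes that fell furthest between the MI groups, has the ETS motif just before its start on chromosome 9 (chr9:98601680-98601739, minus strand). Mrps18a, which did not pass after MI, has it too (chr17:46110944-46111003, plus strand). Mrps18c, the paralog that fell, has the E-box beside a reversed ETS motif (chr5:100798576-100798635, plus strand). Mrpl17, a gene that rose, has the NRF-1 core (chr7:105811088-105811147, minus strand), and an ETS motif further upstream that is not shown. Mrpl20, the gene that rose after MI at 1 day, has the E-box (chr4:155802818-155802877, plus strand). The same motif thus stood before genes of different courses.
Mrps22: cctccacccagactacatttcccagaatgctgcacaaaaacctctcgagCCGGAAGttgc
Mrps18a: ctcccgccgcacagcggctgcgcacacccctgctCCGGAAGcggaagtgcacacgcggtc
Mrps18c: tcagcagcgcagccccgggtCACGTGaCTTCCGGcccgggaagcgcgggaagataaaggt
Mrpl17: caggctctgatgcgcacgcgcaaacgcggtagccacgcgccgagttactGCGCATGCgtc
Mrpl20: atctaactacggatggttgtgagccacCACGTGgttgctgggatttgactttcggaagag

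Genes that work with the mitochondrial ribosome moved with it at 3 days in 7d-MI against 7d-SHAM, where 14.2% of all tested genes fell and 19.8% rose. Of 5 ribosomal proteins with other names 3 fell (median -0.39), Ptcd3, Chchd1 and Aurkaip1. Among the translation factors 9 of 14 fell (median -0.56), led by Taco1, an activator of Cox1 translation (-0.86 ± 0.17), and Mtif3, an initiation factor (-0.63 ± 0.13). Of 29 genes for ribosome assembly and rRNA modification 16 fell (median -0.49), among them Spg7, a subunit of the protease that matures Mrpl32 (-0.90 ± 0.14), and Fastkd2 (-0.66 ± 0.12). Among the mitochondrial aminoacyl-tRNA synthetases and related enzymes 9 of 20 fell (median -0.50), with Gatb and Fars2 first, and of 16 genes of mitochondrial DNA transcription and RNA stability 8 fell (median -0.49), including Twnk, the mitochondrial DNA helicase (-1.16 ± 0.21), and Tfam (-0.66 ± 0.14). None of the genes in these 5 lists rose.

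The nuclear subunits of the respiratory chain and ATP synthase, partners of the proteins made on these ribosomes, fell further. In 7d-MI against 7d-SHAM 78 of 81 fell (median -1.05), with Cox6c (-1.62 ± 0.14) and Ndufa4 (-1.39 ± 0.13) first. For 51 of the 81 the MI effect was more negative at 7 days than at 1 day, beside 4.07% of all tested genes. The summed level of the 81 was 10790 to 12485 CPM in the 7d-MI + 3 group and 24621 to 27754 CPM in the 7d-SHAM + 3 group. With age in the sham groups 31 of the 81 rose and none fell (median 0.41), in contrast to the 5 and 7 of the mitochondrial ribosomal set. Of all tested genes 8.12% rose and 12.2% fell with age. Cytosolic ribosomal proteins showed no such fall in 7d-MI against 7d-SHAM, with 2 of 82 lower and none higher (median -0.03), these being Rpl3l, the striated muscle form of Rpl3 (-1.86 ± 0.33), and Rps27l (-0.45 ± 0.16). In 1d-MI against 1d-SHAM, however, their median was -0.27, near the -0.23 of the mitochondrial set. There 4 of the 82 were lower and 0 higher, beside 4.36% and 4.1% of all tested genes. In 7d-MI against 1d-MI the cytosolic set had 25 higher and 1 lower (median 0.32), while the mitochondrial set had 3 and 31, beside 19.4% and 23.5% of all tested genes. This comparison shares the 1d-MI + 3 libraries with 1d-MI against 1d-SHAM.

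Of 14 nuclear regulators of mitochondrial biogenesis 5 rose and 4 fell in 7d-MI against 7d-SHAM, beside 19.8% and 14.2% of all tested genes. Ppargc1a, the coactivator PGC-1α, fell (-2.20 ± 0.29), as did Esrra (-0.91 ± 0.19), Esrrg (-0.61 ± 0.19) and Gabpa, the DNA-binding subunit of GABP (-0.42 ± 0.13). Myc (2.42 ± 0.19) and Pprc1 (1.31 ± 0.23) were first among those that rose, and Nrf1 (0.18 ± 0.14) and Yy1 (0.08 ± 0.11) did not pass. After MI at 1 day, 0 of 5 other-named ribosomal proteins, 0 of 14 translation factors, 1 of 29 assembly genes and 8 of 81 respiratory chain genes fell, beside 4.36% of all tested genes.

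**Figure D5:**
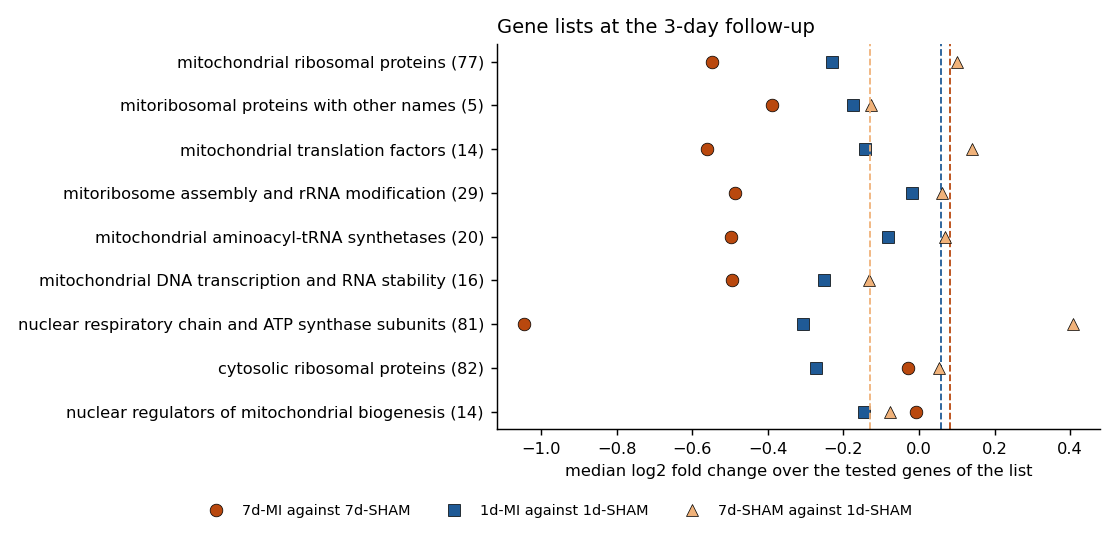
Median log2 fold change of the 77 genes and of each related gene list in 3 comparisons at 3 days, with dashed lines for the median over all tested genes. In 7d-MI against 7d-SHAM the respiratory chain list stands at -1.05, the 77 genes at -0.55 and the cytosolic ribosomal proteins at -0.03.

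At 21 days no gene of the set passed the test in any comparison, by edgeR, DESeq2 or limma-voom over all groups. Of all 24646 tested genes, edgeR called 0.0325% in 7d-MI against 1d-MI, 0.0162% in 1d-MI against 1d-SHAM and 0 in the other 3 comparisons. DESeq2 called 0.844% and 1.33% in these 2 and 4.17% in 7d-MI against 7d-SHAM, none of them in the set. The spread was large, with a median SE of 0.43 on the log2 scale for the set in each pairwise comparison, beside 0.15 at 3 days in 1d-MI against 1d-SHAM. Differences at 21 days are therefore given as values.

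Between the MI groups the estimates lay on one side. In 7d-MI against 1d-MI 74 of 77 were negative, with a median of -0.56 (range -1.001 to 0.19) beside -0.02 over all genes. With an unadjusted p under 0.05, 4 were lower and none higher, beside 1.86% and 4.66% of all genes. For 28 of 77 genes every 7d-MI + 21 library was below every 1d-MI + 21 library, as it was for 7.37% of all tested genes. Mrpl55 had the smallest p, at 58.5, 70.4 and 66.1 CPM in the 1d-MI + 21 group and 16.4, 47.4 and 36.5 CPM in the 7d-MI + 21 group (-0.96 ± 0.37, adjusted p = 0.611 by edgeR). Mrpl23 (-1.001 ± 0.44) and Mrps28 (-0.99 ± 0.45) followed, with overlapping groups. Replicate 1 of the 7d-MI + 21 group was the low library in Mrpl55, Mrpl23 and Mrps28, and without it the median was -0.31. The summed markers separated these 2 groups as well. Ventricular cardiomyocyte markers were at 21650 to 26925 CPM in the 7d-MI + 21 group and 29817 to 35185 CPM in the 1d-MI + 21 group, fibroblast markers at 3108 to 4968 and 1746 to 2532 CPM, and atrial markers at 2166 to 4532 and 412 to 1384 CPM. No single marker passed the test at 21 days, and the part of composition was not tested.

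In 1d-MI against 1d-SHAM 60 of 77 estimates were positive, with a median of 0.50 beside -0.11 over all genes, and 10 were higher and 1 lower at an unadjusted p under 0.05, beside 8.58% and 6.03% of all genes. Leaving out single libraries gave medians of 0.31, without 1d-SHAM + 21 replicate 5, to 0.74, without 1d-SHAM + 21 replicate 3. Upper-quartile scaling gave 0.18 with 30 negative, beside -0.43 over all genes, so that relative to all genes the median was 0.61 under both scalings. The ventricular cardiomyocyte markers summed to 19188 to 27087 CPM in the sham libraries, below the 29817 to 35185 CPM of every 1d-MI + 21 library, and their part was not tested. Every MI library was above every sham library for 29 of 77 genes, and for 15.6% of all tested genes. The 2 smallest p were those of Mrps35 and Mrpl45. Mrps35 was 12.7, 16.1 and 11.95 CPM in the 1d-SHAM + 21 group and 38.4, 32.5 and 27.3 CPM in the 1d-MI + 21 group (1.27 ± 0.42, adjusted p = 0.287 by edgeR). Mrpl45 was 17.3, 19.2 and 11.8 CPM against 44.1, 32.9 and 29.9 CPM (1.15 ± 0.38), and Mrpl19 was 4.63, 6.93 and 5.87 CPM against 15.98, 13.8 and 9.02 CPM (1.16 ± 0.43). When the 2 groups were fitted alone, 2 genes of the set were called, near the 2.91% of all genes called in that fit. Mrpl42 went the other way, at 183, 233 and 166 CPM against 118, 115 and 110 CPM (-0.76 ± 0.34, adjusted p = 0.326).

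After MI at 7 days the set centred near 0 at 21 days, with a median of 0.03 beside -0.13 over all genes, and 38 of 77 estimates negative. At an unadjusted p under 0.05, 4 were lower and none higher, beside 10.4% and 6.31% of all genes. With upper-quartile scaling the median was -0.19, beside -0.47 over all genes. Mrps33 was 14.0, 22.2 and 22.4 CPM in the 7d-SHAM + 21 group and 4.82, 13.8 and 11.8 CPM in the 7d-MI + 21 group (-0.94 ± 0.37, adjusted p = 0.258), Mrpl42 was 149, 181 and 144 CPM against 50.7, 116 and 97.2 CPM (-0.84 ± 0.34), and Mrps36 had an estimate of -0.91 ± 0.38. The result turned on 1 library. Replicate 1 of the 7d-SHAM + 21 group had a summed level of 2809 CPM with the other 2 at 1279 and 1769 CPM, and Mrpl12 there read 105 CPM with the others at 27.7 and 14.7 CPM. Without that replicate the median was 0.60 and 18 genes were called, 16 of them higher, with 11.5% of all genes higher and 10.1% lower in that fit. Summed fibroblast markers were 965 to 1817 CPM in the sham group and 3108 to 4968 CPM in the 7d-MI + 21 group. The ribosomal RNA share in the sham group ran from 0.825% to 63.8%.

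The 7d-SHAM + 21 and 1d-SHAM + 21 groups, at 28 and 22 days of age, did not separate in this set. The median was -0.01 beside 0.14 over all genes, and it was -0.53 without 7d-SHAM + 21 replicate 1. No gene of the set had an unadjusted p under 0.05. The smallest p were those of Mrpl52 (-0.58 ± 0.35), Mrpl17 (-0.73 ± 0.47) and Mrps11 (-0.93 ± 0.64). The difference between the MI effects at the 2 ages had a median of -0.53 beside -0.15 over all genes, with 71 of 77 negative. Only Mrps27 had an unadjusted p under 0.05 (-1.22 ± 0.55, adjusted p = 0.9999 by edgeR), with Mrpl45 and Mrpl15 next. Without 7d-SHAM + 21 replicate 1 the median difference was 0.05. The respiratory chain list had medians of -0.70 in 7d-MI against 1d-MI, -0.37 in 1d-MI against 1d-SHAM and -0.62 in 7d-MI against 7d-SHAM, with no gene called. Over all genes the medians were -0.02, -0.11 and -0.13, in the same order.

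Overlap with other genes bears on 32 of the 77. Besides those named above, Mrpl53 shares 88.0% of its exon bases with Gm42688 on the same strand, Mrps25 69.8% with Nr2c2, Mrpl19 36.0% with Gcfc2 and Mrpl24 26.3% with Rrnad1. Mrpl46 and Mrps11, both members, overlap each other. Their values are uncertain to that extent, as are those of Mrpl23, Mrpl48 and Mrps36, which have pseudogenes of the same name.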

How the data were processed

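RNA-seq was done on 28 libraries (30 files, as 2 libraries were run on 2 lanes each and were summed). Per the labels, reads were aligned to GRCm38 with TopHat2 2.0.11 and Bowtie2 2.2.2, and Cufflinks 2.2.1 is named as well. The counting tool, its strand setting and the annotation release were not given in the sources used here. The deposited files hold raw counts per gene made by the authors, which were used. The deposited CPM (counts over the file total) and RPKM (CPM over gene length) were computed by the authors and not used for any result. Groups were taken from the labels. Nothing says that libraries of a group were prepared apart in every step, so p-values measure the spread between these libraries.

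Each follow-up was fitted alone over all tested genes (20345 at 3 days, 24646 at 21 days) with edgeR 4.0.16 (R 4.3.3, filterByExpr with a minimum count of 10, TMM scaling, quasi-likelihood test, Benjamini-Hochberg adjustment), with all 4 groups in the fit. Adjusted p-values in the text come from this fit unless another tool is named. SE is that of the log2 fold change. Computed CPM are TMM scaled. The scripts were tested on simulated data. Alternatives were DESeq2 1.42.0, limma-voom 3.58.1, other scalings and filters, covariates, a replicate block and leaving out single libraries. Splitting the 1d-SHAM + 3 group by name prefix was chosen after seeing the data. Mrpl33 was not analysed here.

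The members and lists were chosen with earlier results of these data known. Genes were named where their role was listed, where they were among the 6 of smallest p called in a direction (or the 3 of smallest p where none passed), where their level per kilobase was among the 3 highest or lowest, where they overlap another gene or share a name with a pseudogene, or, for other lists, where they had the 2 smallest p in a direction. Esrrg, Gabpa, Nrf1, Yy1 and the cardiomyocyte markers were named after their values were seen.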

Additional observations from a re-analysis of the deposited data

Results flagged for a closer look

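All 77 genes and their summed level were examined in each group of 4 at 3 days. A library stood apart from the other 3 of its group in 16 of these 312 cases, where chance flags about 1 in 20. In the 1d-SHAM + 3 group replicate 1 was high in Mrpl45 (39.9 CPM, others 28.3 to 29.5) and Mrpl12 (152 CPM, others 132 to 134), and replicate 2 was low in Mrpl4 (6.15 CPM, others 7.995 to 8.22). In the 1d-MI + 3 group replicate 2 was low in Mrpl35 (22.9 CPM, others 33.3 to 33.98), Mrpl10 (6.34 CPM, others 10.5 to 11.03) and Mrps34 (21.1 CPM, others 29.4 to 30.1). Replicate 1 of that group was high in Mrpl46 (30.8 CPM, others 12.2 to 14.3) and replicate 3 in Mrps6 (7.74 CPM, others 4.34 to 4.76). In the 7d-SHAM + 3 group replicate 1 was low in Mrpl34 (32.9 CPM, others 40.2 to 41.6) and Mrpl40 (14.8 CPM, others 17.95 to 18.4), and replicate 4 was high in Mrpl49 (26.6 CPM, others 23.8 to 24.2). In the 7d-MI + 3 group replicate 3 was low in Mrps14 (3.10 CPM, others 4.54 to 4.83), Mrpl52 (11.05 CPM, others 17.8 to 19.1) and Mrpl57 (12.3 CPM, others 18.005 to 18.3). Replicate 1 of that group was low in Mrps25 (26.3 CPM, others 28.9 to 29.03) and high in Mrpl47 (24.1 CPM, others 19.2 to 19.7).

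The effect of MI at 3 days differed between the ages, by the test of the difference itself, for 15 genes. As the effect at 7 days minus that at 1 day on the log2 scale, the differences were -1.12 for Mrpl20, -0.98 for Mrpl55, -0.96 for Mrpl46, -0.89 for Mrpl16, -0.83 for Mrpl39, -0.80 for Mrpl50, -0.79 for Mrpl9, -0.77 for Mrpl53, -0.73 for Mrps9, -0.71 for Mrpl22, -0.70 for Mrpl41, -0.69 for Mrpl12, -0.67 for Mrps35, -0.62 for Mrpl34 and -0.51 for Mrpl3. Mrpl20, Mrpl50 and Mrpl55 kept the call in all 27 alternatives run for them.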

How the results depend on the processing

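At 3 days, with the ribosomal RNA share as a covariate, the genes called numbered 9 in 7d-MI against 1d-MI (median -0.16), 0 in 1d-MI against 1d-SHAM (median -0.038), 1 in 7d-MI against 7d-SHAM (median -0.39) and 5 in 7d-SHAM against 1d-SHAM. Of all tested genes 29.3%, 0.0590%, 9.43% and 14.5% were called in these fits, in the same order. With upper-quartile scaling the medians were -0.55 in 7d-MI against 1d-MI, -0.091 in 1d-MI against 1d-SHAM and -0.58 for the difference between MI effects (39 called, beside 13.6% of all genes). With the stricter filter they were -0.45 in the first and -0.48 in the last (34 called, beside 21.3%). In 1d-MI against 1d-SHAM, 2 were called with 1d-SHAM + 3 replicates 1 and 2 alone, 15 with replicates 3 and 4 alone, 9 by DESeq2, 2 with the prefix as a random block and 1 with the 2 groups alone. The shares of all genes called were 1.74%, 23.1%, 13.7%, 1.27% and 0.826%, in the same order. In 7d-SHAM against 1d-SHAM the counts were 28 and 3 with either pair, and 1 with the prefix block, beside 30.1%, 6.23% and 5.96% of all genes. For the difference, 8 were called with replicates 1 and 2 alone, 16 with replicates 3 and 4 alone, 28 by DESeq2, 4 with the prefix block and 6 with no filter. Here the shares of all genes were 11.5%, 13.4%, 17.3%, 4.17% and 7.35%. At 21 days, 2 were called in 1d-MI against 1d-SHAM with the 2 groups alone. Leaving out single libraries at 3 days gave counts of 2 to 13 in 1d-MI against 1d-SHAM, beside 3.05% to 15.1% of all genes. In 7d-SHAM against 1d-SHAM they were 3 to 15, beside 10.8% to 23.2%. For the difference they were 6 to 16, beside 8.25% to 13.0%. At 21 days the counts were 0 to 18 in 7d-MI against 7d-SHAM, and the shares beside the 18 are given above. The medians then ran from -0.39 to -0.20 in 7d-MI against 1d-MI and from -0.41 to -0.23 for the difference at 3 days, and at 21 days from -0.23 to 0.60 in 7d-MI against 7d-SHAM, -0.53 to 0.18 in 7d-SHAM against 1d-SHAM and -0.72 to 0.052 for the difference. In 7d-SHAM against 1d-SHAM at 21 days the estimates ran from -1.18 to 0.025 for Mrpl17 and from -1.81 to 0.28 for Mrps11, and changed sign without 1d-SHAM + 21 replicate 3. Apart from the covariate and the changes of samples, the cause was not tested. With the replicate number as a block at 21 days 0 genes were called in every comparison, with medians of -0.55, 0.31, 0.10, -0.33 and -0.18 in 7d-MI against 1d-MI, 1d-MI against 1d-SHAM, 7d-MI against 7d-SHAM, 7d-SHAM against 1d-SHAM and the difference. Libraries of the same number had a median r of 0.011 over 15 pairs (-0.35 to 0.44, 6 over 0.1). Other pairs had a median r of -0.063 over 39 pairs, with 13 over 0.1. With 3 libraries per group these values cannot decide whether the numbers pair the libraries.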
